A study of Rattus norvegicus with 20 samples.

Results

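The contrast described here asks how the effect of pulmonary banding on gene expression in the rat right ventricle differed between 8 and 4 weeks after surgery, that is, (banding minus sham at 8 weeks) minus (banding minus sham at 4 weeks). Its members were all libraries with a column in the deposited table of normalized counts, 19 of the 20 labelled samples, and each gene was followed on log2(normalized count + 1). The same number can be written as the change from 4 to 8 weeks under banding minus the change from 4 to 8 weeks in sham. A gene can therefore reach a difference because sham hearts changed and banded hearts did not, because banded hearts changed and sham hearts did not, or through both, and each result below states which.

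All animals were Wistar rats, an outbred laboratory strain, banded or sham operated as pups. Pulmonary banding ties a band around the main pulmonary artery and loads the right ventricle with pressure, and a sham operation leaves the band out. The groups were sham at 4 weeks after surgery (age 7 weeks, n = 5), sham at 8 weeks (age 11 weeks, n = 5), banding at 4 weeks (age 7 weeks, n = 5) and banding at 8 weeks (age 11 weeks, n = 4, numbered 1, 3, 4 and 5). Replicate 2 of banding at 8 weeks was not analysed here. Time after surgery and age cannot be told apart, because all rats of a time point had the same age, and no batch is labelled, so a change with time may hold a day of collection or of library preparation as well. The labels number the samples within a group but do not say that each came from a separate animal, so p-values measure the spread between these samples.

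As background, the rat right ventricle is still growing after weaning: muscle cells enlarge, proliferation winds down, newly made matrix matures, and fuel use settles on fatty acid oxidation. Pressure load is known to bring back transcripts of the fetal heart, to raise matrix genes in fibroblasts and to lower genes of fatty acid oxidation. Type I interferon signalling works through transcription factors that bind a short promoter element and switch on a shared set of antiviral genes.

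Recovered read totals ran from 2.70 to 8.54 M per library with a median of 5.79 M, and 2 libraries, replicate 1 of sham at 8 weeks and replicate 1 of banding at 8 weeks, held under 3 M. The ventricular label was checked with the regulatory light chains: Myl2, the ventricular chain, averaged 34670 to 42300 normalized counts in the 4 groups, while Myl7, the atrial chain, ran from 24.7 to 17580 and exceeded 1000 in 7 libraries. These were 2 of 5 in sham at 4 weeks, 3 of 5 in sham at 8 weeks, 1 of 5 in banding at 4 weeks and 1 of 4 in banding at 8 weeks. Each count of called genes was therefore also taken without these libraries and with an atrial score as a covariate.

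Of 10926 genes tested, 3 (0.0275%) were called for the difference at an adjusted p under 0.05 (limma with Benjamini-Hochberg adjustment), and all 3 had a larger banding effect at 8 weeks. Oasl2 and Rsad2 are antiviral genes of the interferon response, and Fxyd6 encodes a membrane protein that regulates the sodium pump. The edgeR quasi-likelihood test on recovered reads also called 3 genes, whereas DESeq2 called 77 of the 9861 genes it gave an adjusted p (0.781%, 47 or 0.477% higher and 30 or 0.304% lower) and limma with the atrial score as a covariate called 150 (1.37%, 71 or 0.65% higher and 79 or 0.723% lower). Without the libraries with Myl7 above 1000, 2 genes were called, 1 of them among the 3. At an unadjusted p under 0.05 there were 1278 genes (11.7%), 639 higher and 639 lower, 5.85% in each direction, and these figures are the background for the gene lists below. The 95% confidence interval of the difference lay within a 2-fold change either way for 8470 genes (77.5%).

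More genes were called for a change with time in sham than under banding. In sham, 714 genes (6.53%) changed between 4 and 8 weeks, 292 rising (2.67%) and 422 falling (3.86%). Under banding 125 changed (1.14%), 53 rising (0.485%) and 72 falling (0.659%). Without the libraries with Myl7 above 1000 the sham numbers were 49 rising and 108 falling and the banding numbers 26 and 24. With DESeq2 they were 431 and 557 in sham and 133 and 138 under banding, and in the fit with the atrial score 498 and 584 in sham and 125 and 161 under banding. The median standard error was 0.127 (log2) for the sham change and 0.135 for the banding change. Both rest on a spread per gene that all 4 groups share, so they do not measure the spread of each setting. The mean log2 level of matricellular genes had a standard deviation of 0.68 and 0.26 in sham at 4 and 8 weeks. Under banding it was 0.15 and 0.10. For red cell transcripts these values were 0.44, 0.47, 0.35 and 1.02 in the same order. The part of unequal spread in these counts was not tested. Of the 422 genes that fell in sham, with a median change of -0.60, the same genes had a median change of -0.20 under banding, where 41 also fell and 2, Oasl2 and Rsad2, rose. Of the 292 that rose in sham, with a median change of 0.38, the median under banding was 0.12 and 12 also rose. In the other direction, the 72 genes that fell under banding by a median of 1.11 had a median change of -0.82 in sham, where 41 of them also fell. These medians favour the contrast in which the genes were picked and are given as a description.

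The side of each difference was read from the sum of both changes, which was tested in the same fit and called for 812 genes (7.43%). Changes in the same direction also give a called sum, so 812 is not a count of genes with a larger side. Where the sum was called, the change with the larger estimated size is named as larger, here and below. For a gene not called for the difference, this does not show that the changes differ. Among the 3 called genes the sham change was larger for Fxyd6, and for Oasl2 and Rsad2 neither was shown to be larger. Among the 639 genes with a higher difference at an unadjusted p under 0.05, the sham change was larger in 74, the banding change in 20, and 545 were not resolved. Among the 639 with a lower difference, these numbers were 38, 9 and 592. The banding change made up a median of 38.4% of the higher and 45.9% of the lower differences. Among the higher differences, the banding effect at 8 weeks kept its direction and was larger in size than at 4 weeks for 363, was smaller for 22 and had the opposite sign for 254.

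Oasl2 (NM_001009682), a member of the oligoadenylate synthetase-like family that is known from mouse as interferon-induced, was at 37.5, 47.8, 43.8, 34.4 and 56.2 normalized counts in sham at 4 weeks and at 28.7, 14.8, 27.3, 29.3 and 25.2 in sham at 8 weeks. It was at 35.4, 31.5, 57.2, 30.8 and 33.7 in banding at 4 weeks and at 104.1, 64.5, 94.9 and 87.8 in banding at 8 weeks. Every library of banding at 8 weeks was above all 15 others, and the 2 sham groups did not overlap. Oasl2 fell by 0.80 ± 0.21 (log2, SE) in sham (adjusted p = 0.0231) and rose by 1.22 ± 0.22 under banding (adjusted p = 0.0147). The banding effect was -0.23 at 4 weeks and 1.79 at 8 weeks, a difference of 2.02 ± 0.31 (95% interval 1.39 to 2.65, limma, adjusted p = 0.0101), of which the banding change made up 60.2%. Its mean over all libraries lay under the minimum of 50 set for naming genes, and it is named because only 3 genes were called.

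Rsad2 (NM_138881), which encodes the antiviral enzyme viperin, was at 192.1, 228.7, 218.7, 271.3 and 287.3 in sham at 4 weeks and at 151.0, 130.2, 138.5, 191.3 and 159.9 in sham at 8 weeks. It was at 176.2, 167.4, 286.9, 230.9 and 236.9 in banding at 4 weeks and at 368.5, 427.1, 280.0 and 348.4 in banding at 8 weeks. The sham groups did not overlap, 1 of the 5 sham libraries at 8 weeks lay within the range of 4-week banding and the other 4 below it, and 3 of the 4 libraries of banding at 8 weeks lay above all libraries of the other groups. Rsad2 fell by 0.63 ± 0.15 in sham (adjusted p = 0.0130) and rose by 0.71 ± 0.16 under banding (adjusted p = 0.0283), giving a difference of 1.34 ± 0.21 (95% interval 0.89 to 1.78, limma, adjusted p = 0.0101) split almost evenly, with 52.8% from the banding change. Without the libraries with Myl7 above 1000, Oasl2 and Rsad2 were no longer called, at 1.96 (adjusted p = 0.0826) and 1.20 (adjusted p = 0.164).

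Fxyd6 (NM_022005) was at 221.6, 265.1, 211.7, 266.5 and 229.0 in sham at 4 weeks and at 112.8, 137.6, 134.3, 149.4 and 146.5 in sham at 8 weeks. It was at 329.4, 287.5, 316.4, 313.8 and 312.7 in banding at 4 weeks and at 340.4, 268.0, 340.8 and 365.9 in banding at 8 weeks. All banding libraries lay above every sham library, 3 of the 4 at 8 weeks lay above all of those at 4 weeks and replicate 3 below them, and the sham libraries at 8 weeks all lay below those at 4 weeks. Fxyd6 fell by 0.81 ± 0.10 in sham (adjusted p = 5.62e-05), and its change under banding was 0.07 ± 0.10 (adjusted p = 0.826). The banding effect was 0.39 at 4 weeks and 1.26 at 8 weeks, a difference of 0.87 ± 0.14 (95% interval 0.58 to 1.17, limma, adjusted p = 0.0101), with 7.70% from the banding change. Without replicate 5 of banding at 8 weeks the difference was 0.82 with an adjusted p of 0.0510.

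**Figure D1:**
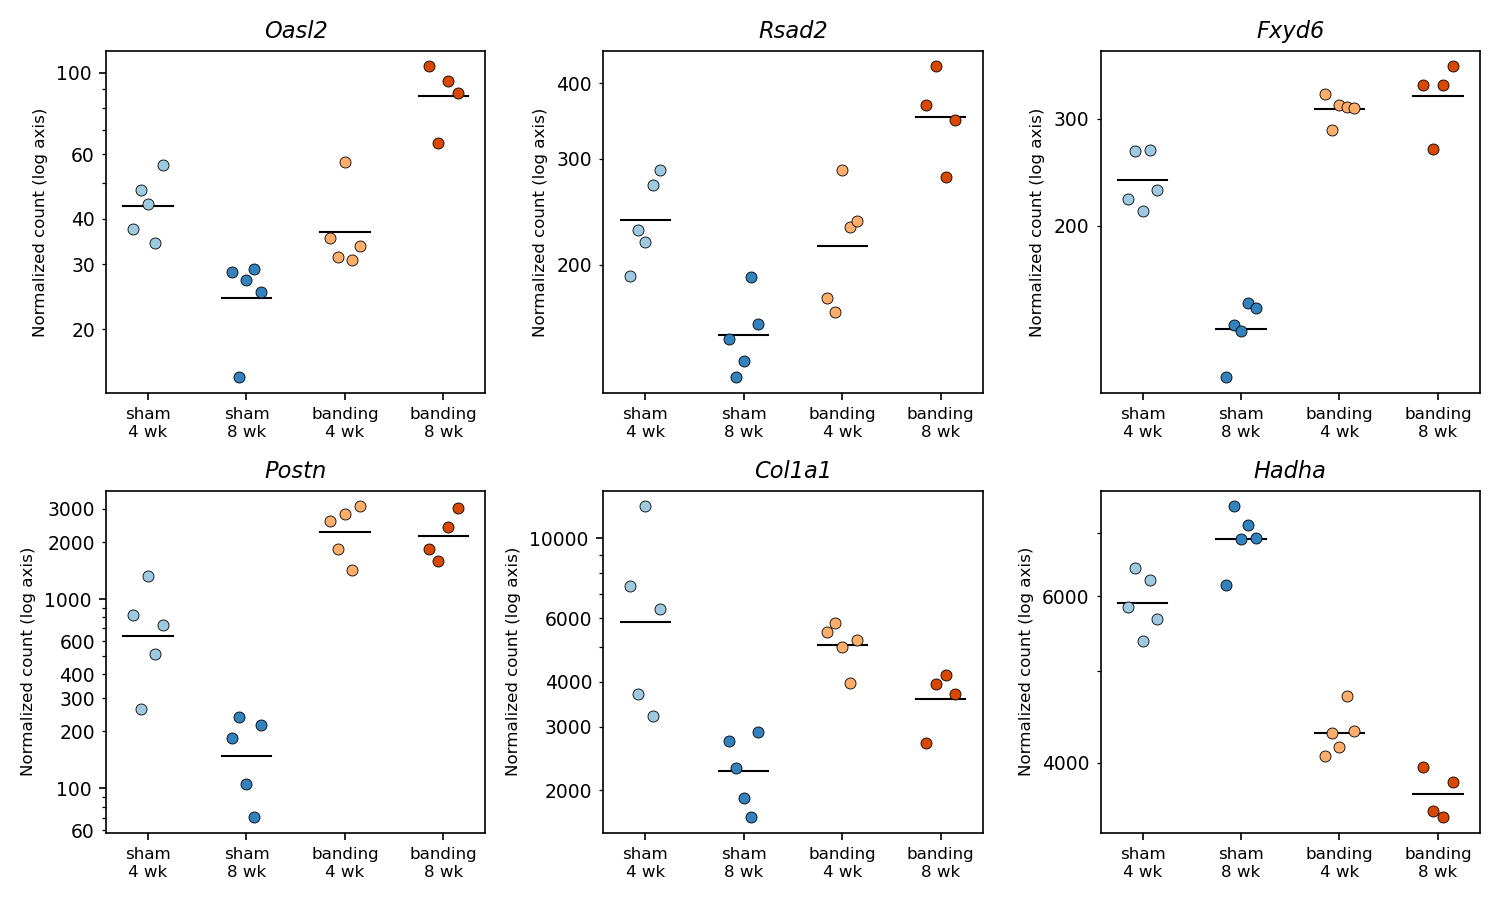
Normalized counts (log axis) of 6 genes in each library, by group, with a line at the mean taken on log2(value + 1). Oasl2 and Rsad2 were lower in sham and higher under banding at 8 than at 4 weeks, Fxyd6, Postn and Col1a1 were lower in sham at 8 weeks, and Hadha was higher in sham at 8 weeks and lower in 8-week banding.

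The next 22 genes by p-value had adjusted p-values of 0.0520 to 0.0703 and are named as a group chosen after their values were seen. All 16 with a difference above 0 had a sham change below 0, and 15 of them had a banding change above 0. All 6 with a difference below 0 had a sham change above 0 and a banding change below 0. For 19 of the 22 neither change was shown to be larger. Of the 22, 5 were on the interferon response list: Mx2 (an antiviral GTPase, 1.63), Ifi44 (1.03), Ifi27 (0.77), Dhx58 (a regulator of RNA sensing, 1.34) and Gbp2 (0.78). Ifi27l2b (1.05), Ly6e (0.86) and Ifi35 (0.74) were not on it. Ifi27l2b had the larger change under banding, 0.88 against -0.17 in sham. The others with a difference above 0 were Vxn (2.01), Fam167a (1.79), Cd34, a surface protein of endothelial and progenitor cells (0.51), Lama4, a laminin chain of vessel basement membranes (0.45), Cgnl1, a junction protein (1.02), Dpysl3, a cytoskeletal protein (1.20), Emp1 (0.63) and Serpine2, a protease inhibitor (0.97). For Lama4 and Emp1 the sham change was larger, with -0.54 for Lama4 and -0.56 for Emp1 in sham and -0.09 and 0.06 under banding.

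The 6 genes with a difference below 0 were the fatty acid oxidation enzyme Hadha (-0.44), Crat, which moves acetyl groups between carnitine and coenzyme A (-0.44), Mrps27, a mitochondrial ribosomal protein (-0.72), Lrrc39, a protein of the sarcomere's M-band (-0.54), Hax1, a mitochondrial protein (-0.71), and Iqcb1, a ciliary protein (-0.74). Mrps27 was at 124.2 to 141.1 in sham at 4 weeks and 160.5 to 191.0 in sham at 8 weeks, and at 106.1 to 144.1 in banding at 4 weeks and 86.9 to 114.9 in banding at 8 weeks. It rose in sham by 0.37 (adjusted p = 0.0275), and under banding its change was -0.35 (adjusted p = 0.106).

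The banding effect itself was called for 2086 genes at 4 weeks (19.1%), for 3644 at 8 weeks (33.4%) and for 1653 at both (15.1%). Of the 1653, 1650 had the same direction at both times and 3 had opposite directions, and these 3, Ifi44, Cgnl1 and Ifi35, were all lower than sham at 4 weeks and higher at 8 weeks. Ifi44, an interferon-induced cytoplasmic protein, was at 159.0, 218.1, 231.2, 200.6 and 220.2 in sham at 4 weeks, at 158.6, 143.1, 145.9, 179.4 and 202.5 in sham at 8 weeks, at 136.7, 161.6, 199.3, 116.6 and 153.6 in banding at 4 weeks, and at 288.4, 222.1, 249.2 and 241.2 in banding at 8 weeks. The 8-week banding libraries lay above all 8-week sham libraries, and the 4-week groups overlapped. Its banding effect was -0.43 at 4 weeks (adjusted p = 0.0244) and 0.60 at 8 weeks (adjusted p = 0.00217), and it rose by 0.72 under banding (adjusted p = 0.0167) with a sham change of -0.31 (adjusted p = 0.172). Cgnl1 was at 864.6 to 1162 in sham at 4 weeks and 604.2 to 865.8 in sham at 8 weeks, and at 623.6 to 931.4 in banding at 4 weeks and 885.2 to 1384 in banding at 8 weeks. It fell by 0.49 in sham (adjusted p = 0.0297), and its change under banding was 0.53 (adjusted p = 0.0617).

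The interferon response list had 34 tested genes, of which Rsad2 was called, and Oasl2 was not on the list. Of the 34, 27 had a higher difference at an unadjusted p under 0.05 and 0 a lower one, against 5.85% of all genes in each direction. The median difference of the list was 0.77, made of a median change of -0.28 in sham and 0.40 under banding, where the medians of all genes were 0.0046, 0.0078 and 0.0023. In sham 2 members fell, Rsad2 and Ifi27, a share near the 3.86% of all genes that fell. Under banding 6 members rose, Rsad2, Mx2, Ifi44, Oas1b, Ifit3 and Usp18, where 0.485% of all genes rose. In sham 27 of the 34 changes were below 0, and under banding 33 were above 0. DESeq2 called 9 members for the difference (Rsad2, Mx2, Ifi44, Ifi27, Gbp2, Dhx58, Isg15, Ifih1 and Parp14), and the fit with the atrial score called 7, all higher.

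By the sum of both changes the banding change was the larger for 4 members, the sham change for 0, and for the others neither was. Ifit3, an interferon-induced antiviral protein, was at 89.8 to 133.2 in sham at 4 weeks and 77.5 to 196.8 in sham at 8 weeks, and at 51.9 to 149.5 in banding at 4 weeks and 177.7 to 420.5 in banding at 8 weeks. Ifit3 rose by 1.35 under banding (adjusted p = 0.0196) against -0.03 in sham, so that 97.6% of its difference of 1.39 (unadjusted p = 0.00134) came from the banding change, which was the larger. Usp18, which dampens interferon receptor signalling, was likewise on the banding side, with a rise of 0.74 (adjusted p = 0.0327) against 0.06 in sham. Mx2 was at 198.3, 270.8, 296.1, 227.4 and 256.5 in sham at 4 weeks, at 139.5, 140.3, 148.0, 214.2 and 154.4 in sham at 8 weeks, at 115.3, 131.6, 312.8, 209.7 and 212.5 in banding at 4 weeks, and at 486.6, 260.8, 358.8 and 379.8 in banding at 8 weeks. Mx2 rose under banding by 0.97 (adjusted p = 0.0315), and its sham change was -0.65 (adjusted p = 0.0622), and neither was shown to be larger.

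The mean log2 level of the 34 genes, set to 0 for the mean of sham at 4 weeks, ran from -0.18 to 0.10 in sham at 4 weeks, -0.46 to 0.02 in sham at 8 weeks, -0.53 to 0.15 in banding at 4 weeks and 0.16 to 0.61 in banding at 8 weeks. The 8-week banding libraries lay above the 15 others. Replicate 3 of banding at 4 weeks had the highest level of its group, and without that library 19 genes were called for the difference over the whole table, 18 higher and 1 lower. Summed normalized counts of 21 lymphocyte markers were 468.6 to 570.2 in banding at 8 weeks and 322.7 to 465.6 in the other groups. The mean log2 level of the 9 tested did not set 8-week banding apart. It was -0.62 to 0.28 there, -0.78 to -0.02 in banding at 4 weeks, -0.26 to 0.11 in sham at 4 weeks and -0.03 to 0.21 in sham at 8 weeks. Of the 9, 0 had a higher or lower difference at an unadjusted p under 0.05. Those of 21 macrophage markers were 6263 to 7349 in banding at 8 weeks, 5304 to 7025 in banding at 4 weeks and 3250 to 6073 in the sham groups. Their part in the interferon result was not tested. In these bulk samples, fewer cells of a type and less RNA per cell cannot be told apart, here and for every marker below.

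Promoters were looked at because most genes of the list had a difference of the same sign. In RefSeq windows of 300 bases around the start (250 before and 50 after, rat build GRCr8, whereas the deposited values rest on rn6), the core of the interferon-stimulated response element, GAAANNGAAA on either strand, was found in 17 of the 25 list members with a window (68%) and in 1312 of 33469 windows of all genes (3.92%). A match describes the letters and is not evidence of binding. The list was written from known interferon response genes, which are switched on through such an element. Its high share was therefore set by the choice of list, whatever these data show. Shown are the 250 bases before the start of 4 genes, 5′ to 3′ on the strand of the gene, with the matches in capitals (TTTC at the left end marks a match on the opposite strand): Oasl2 (chr12:47383186-47383435, minus strand), Rsad2 (chr6:48788121-48788370, minus), Ifi44 (chr2:243303841-243304090, minus) and Ifi27 (chr6:128355062-128355311, plus).
Oasl2: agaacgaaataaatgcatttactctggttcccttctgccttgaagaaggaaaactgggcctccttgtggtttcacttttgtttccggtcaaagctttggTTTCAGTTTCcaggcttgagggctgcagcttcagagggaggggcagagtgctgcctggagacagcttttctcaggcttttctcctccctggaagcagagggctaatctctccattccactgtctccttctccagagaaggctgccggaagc
Rsad2: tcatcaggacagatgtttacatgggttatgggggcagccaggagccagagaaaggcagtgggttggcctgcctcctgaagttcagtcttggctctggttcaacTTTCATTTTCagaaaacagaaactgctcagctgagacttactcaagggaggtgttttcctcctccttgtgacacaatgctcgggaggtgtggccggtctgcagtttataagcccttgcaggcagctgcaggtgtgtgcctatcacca
Ifi44: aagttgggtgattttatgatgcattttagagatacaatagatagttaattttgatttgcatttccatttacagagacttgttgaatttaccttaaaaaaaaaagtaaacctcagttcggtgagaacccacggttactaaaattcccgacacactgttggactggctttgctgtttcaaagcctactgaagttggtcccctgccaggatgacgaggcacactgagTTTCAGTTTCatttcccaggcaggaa
Ifi27: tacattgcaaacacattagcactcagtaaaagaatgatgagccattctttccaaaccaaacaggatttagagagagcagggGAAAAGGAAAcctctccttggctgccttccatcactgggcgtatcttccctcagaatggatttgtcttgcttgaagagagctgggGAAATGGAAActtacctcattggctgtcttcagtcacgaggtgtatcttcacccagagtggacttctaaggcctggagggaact
Oasl2, Rsad2 and Ifi44 each had 1 match, which began 151, 147 and 26 bases before the start, and Ifi27 had 2. These 4 were picked from the 25 genes with the smallest p, so their differences above 0, from 0.77 for Ifi27 to 2.02 for Oasl2, were known beforehand. A further element, TNAAGGTCA of the estrogen-related receptors, was looked for in the same windows. It was found in 0 of 26 fatty acid, 1 of 21 citrate cycle and 0 of 38 respiratory chain windows, and in 1.2% of all windows.

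**Figure D2:**
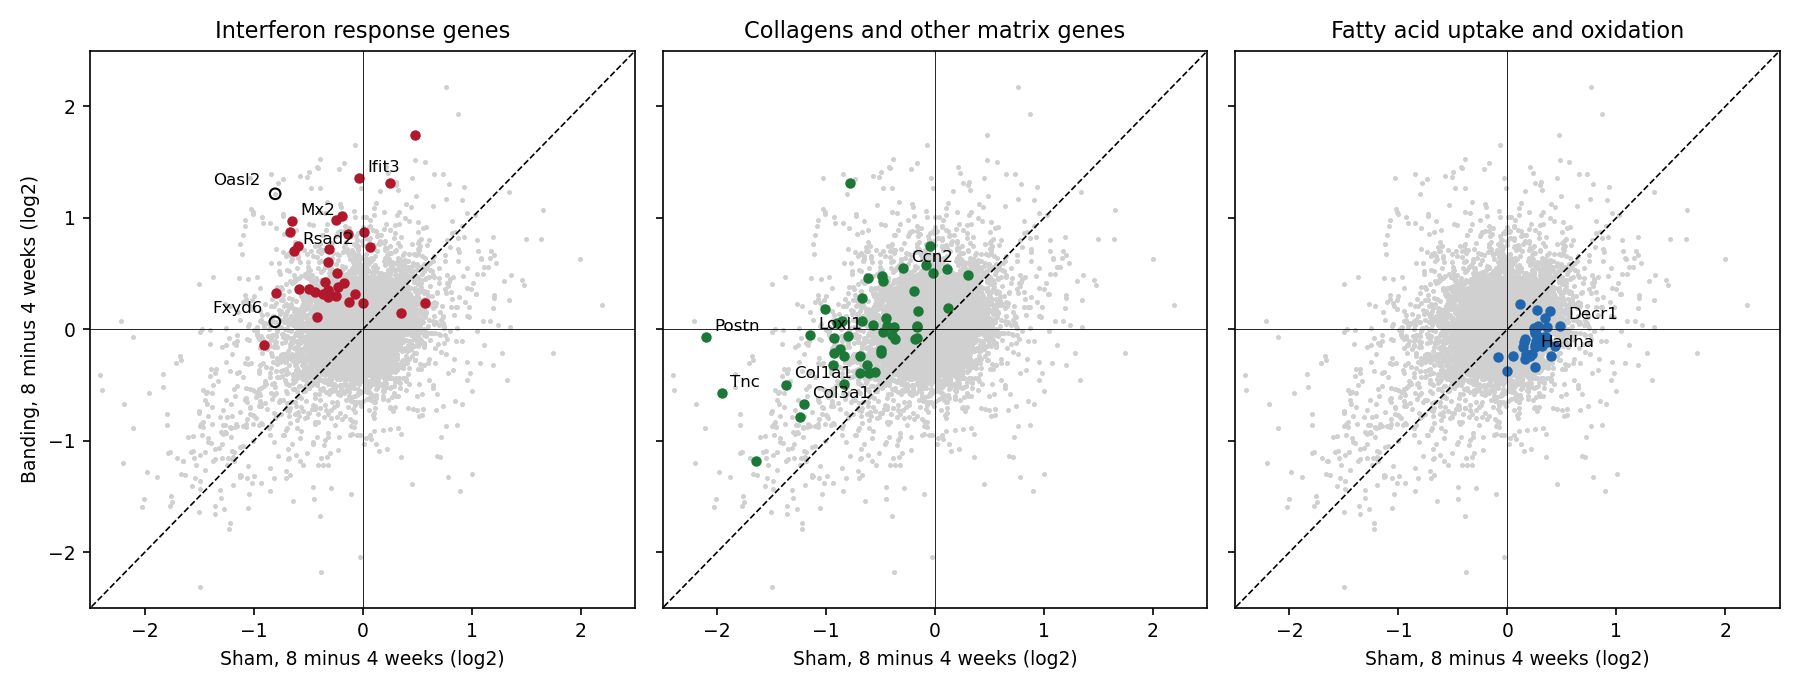
Change from 4 to 8 weeks in sham (horizontal, log2) against the change under banding (vertical, log2) for all tested genes (grey, 1 of 10926 lies beyond the axes), with interferon, matrix and fatty acid genes in colour and the called genes Oasl2 and Fxyd6, on none of these lists, as open circles. Genes above the dashed line of equal change have a difference above 0. Interferon genes lie mostly in the upper left, matrix genes mostly left of 0, and fatty acid genes right of 0 near or below it.

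Many matrix genes fell in sham, and few of them passed the test under banding. Of 35 tested matricellular and elastic matrix genes 11 fell in sham and 0 rose, while under banding 1, the basement membrane gene Nid2, fell and 0 rose. Of 15 collagen chains 10 fell in sham and 0 rose, and 0 changed under banding by limma. The share of all genes that fell in sham was 3.86%. Median changes were -0.48 in sham and 0.03 under banding for the matricellular list, and -0.67 and -0.21 for the collagens. No member was called for the difference by limma. At an unadjusted p under 0.05 the difference was higher for 13 of the 35 and 8 of the 15, with 0 lower in either list. With single libraries left out, the higher ones numbered 10 to 21 of the 35 and 6 to 9 of the 15. The 21 were reached without replicate 2 of sham at 4 weeks, and the robust fit gave 5 of the 15 collagens. DESeq2 called Tnc, Emilin1 and Postn, and the fit with the atrial score called 7 matricellular genes (Loxl1, Postn, Tnc, Fn1, Fbn1, Emilin1 and Bgn) and 2 collagens (Col14a1 and Col5a1), all higher.

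Postn (NM_001108550), the matricellular protein periostin of activated fibroblasts, was at 827.3, 263.5, 1321, 511.1 and 731.0 in sham at 4 weeks and at 185.4, 237.3, 106.0, 70.3 and 215.9 in sham at 8 weeks. It was at 2579, 1847, 2821, 1418 and 3100 in banding at 4 weeks and at 1850, 1597, 2412 and 3022 in banding at 8 weeks. The range of the 8-week banding group lay within that of the 4-week banding group, all banding libraries were above every sham library, and the sham groups did not overlap. Postn fell by 2.11 ± 0.35 in sham (adjusted p = 0.000973) with a change of -0.07 ± 0.37 under banding, so that the banding effect was 1.82 at 4 weeks and 3.85 at 8 weeks. The difference was 2.04 ± 0.51 (95% interval 0.98 to 3.09, unadjusted p = 0.000587, adjusted p = 0.118) and was not called. By the sum of both changes the sham change was the larger.

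Tnc, the matricellular glycoprotein tenascin C, was at 112.7 to 174.2 in sham at 4 weeks and 26.2 to 47.8 in sham at 8 weeks, and at 96.0 to 179.5 in banding at 4 weeks and 54.8 to 150.6 in banding at 8 weeks. At 4 weeks its banding effect was 0.04, and at 8 weeks it was 1.43 (adjusted p = 4.60e-05), while it fell by 1.96 in sham (adjusted p = 2.44e-05) with a change of -0.57 under banding. Its difference was 1.39 ± 0.32 (adjusted p = 0.0786). Loxl1, which cross-links elastic fibres, also fell in sham, by 1.15 (adjusted p = 0.00176), with a change of -0.05 under banding. Its difference was 1.10 ± 0.30 (adjusted p = 0.158). Nox4, an oxidase that makes hydrogen peroxide, also lay on the sham side, with a fall of 1.00 in sham (adjusted p = 0.00118) and a change of 0.00 under banding.

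Col1a1 and Col3a1 of the fibrillar collagens fell in sham and had negative estimates under banding too. Col1a1, the main chain of type I collagen, was at 7369, 3709, 12260, 3208 and 6345 in sham at 4 weeks and at 2735, 2305, 1907, 1684 and 2896 in sham at 8 weeks. It was at 5495, 5815, 4980, 3973 and 5228 in banding at 4 weeks and at 2708, 3941, 4169 and 3697 in banding at 8 weeks. The wide range of the 4-week sham group covered the whole 4-week banding group. Col1a1 fell by 1.37 ± 0.25 in sham (adjusted p = 0.00194), its change under banding was -0.50 ± 0.26 (adjusted p = 0.414), and the banding effect was -0.21 at 4 weeks and 0.67 at 8 weeks (adjusted p = 0.0560). Col3a1 fell by 1.21 in sham (adjusted p = 0.000317) with -0.67 under banding (adjusted p = 0.0799) and a difference of 0.53 ± 0.26 (95% interval 0.00 to 1.07). Ccn2, the profibrotic connective tissue growth factor, was not on the sham side: its banding effect was 1.74 at 4 weeks and 2.58 at 8 weeks, with changes of -0.29 in sham and 0.55 under banding, neither called.

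The level of the matricellular list was widely spread in sham at 4 weeks, from -0.66 to 0.89 on the mean log2 scale, and at -0.87 to -0.34 in sham at 8 weeks, so that these groups overlapped. Replicates 1 and 3 of sham at 4 weeks were its highest, at 0.49 and 0.89, and on the same scale they also had the highest atrial markers (1.43 and 0.77) and adipocyte markers (1.67 and 1.30) of the group, with Myl7 at 7268 and 2783. In sham at 8 weeks replicates 1 and 5 were the highest in all 3 lists. Without the libraries with Myl7 above 1000 the median difference of the matricellular list was 0.34 against 0.54 with all libraries, and 13 of the 35 again had a higher difference at an unadjusted p under 0.05. The part of adipocyte content was not tested. The matricellular level was 0.30 to 0.66 in banding at 4 weeks and 0.49 to 0.72 in banding at 8 weeks. Without replicate 3 of sham at 4 weeks, the library with the highest Postn and Col1a1 of that group, 271 genes over the whole table fell in sham and 152 rose. Summed normalized counts of 17 fibroblast markers were 22331 to 35435 in sham at 4 weeks, 28918 to 33486 in sham at 8 weeks, 20879 to 25222 in banding at 4 weeks and 26053 to 31607 in banding at 8 weeks, with Cd248 at 0 in all libraries. Of the 16 fibroblast markers tested, 4 fell in sham (Col15a1, Thy1, Dpt and Fap) and 1 rose (Gsn), and under banding 1 rose (Gsn). Of all genes 3.86% fell and 2.67% rose in sham, and 0.485% rose under banding. In sham the sum and the members went opposite ways. The median sum was 24025 at 4 and 30547 at 8 weeks, whereas the mean log2 level of the 16 was -0.35 at 8 weeks against 0 at 4 weeks. The part of fibroblast content in the matrix result was not tested.

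**Figure D3:**
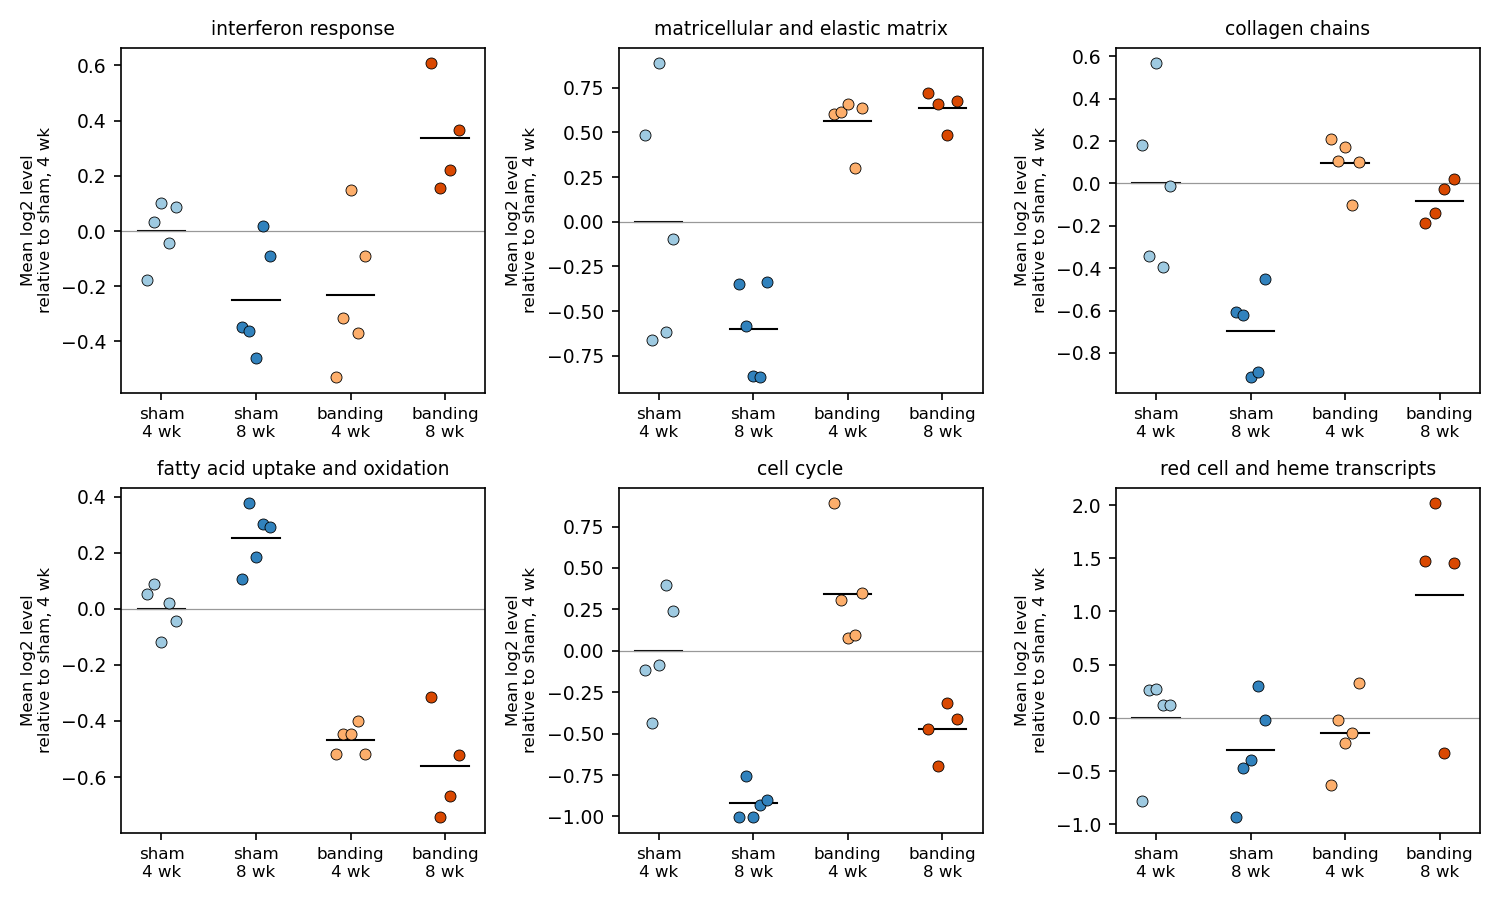
Mean log2 level of 6 gene lists in each library, relative to the mean of sham at 4 weeks, with a line at each group mean. Interferon genes are highest in all 4 libraries of banding at 8 weeks, both matrix lists are lowest in sham at 8 weeks, fatty acid genes part further between sham and banding at 8 weeks, and cell cycle genes are lower at 8 weeks in sham and banding alike.

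Of 34 genes that take up and burn fatty acids 13 rose in sham (2.67% of all genes did) and 0 fell, and 0 passed the test under banding. The median change was 0.26 in sham and -0.10 under banding, for a median difference of -0.37. Limma called 0 members for the difference, and 21 had a lower and 0 a higher difference at an unadjusted p under 0.05. DESeq2 called 7 (Hadha, Hadhb, Acadvl, Eci2, Acadm, Acot2 and Acsl1) and the fit with the atrial score 10, all lower.

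Hadha (NM_130826), the long-chain subunit of the mitochondrial trifunctional protein, was at 5839, 6426, 5382, 6246 and 5678 in sham at 4 weeks and at 6160, 7473, 6899, 7146 and 6923 in sham at 8 weeks. It was at 4066, 4300, 4158, 4700 and 4322 in banding at 4 weeks and at 3955, 3553, 3501 and 3816 in banding at 8 weeks. Every banding library lay below every sham library, and the 4 libraries of banding at 8 weeks lay below the 5 at 4 weeks. Hadha rose by 0.23 ± 0.07 in sham (adjusted p = 0.0417), its change under banding was -0.22 ± 0.07 (adjusted p = 0.130), and the banding effect was -0.46 at 4 weeks and -0.90 at 8 weeks. The difference was -0.44 ± 0.10 (95% interval -0.64 to -0.24, adjusted p = 0.0703), split between both sides. Its partner subunit Hadhb, whose promoter window overlaps that of Hadha on the opposite strand, had a difference of -0.46 ± 0.11 (limma, adjusted p = 0.0786). The overlap lies before the start of both genes, which run away from each other.

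Acadm and Decr1 rose in sham and had estimates near 0 under banding. Acadm, the medium-chain acyl-CoA dehydrogenase, was at 5325 to 5742 in sham at 4 weeks and 6047 to 7920 in sham at 8 weeks, and at 3719 to 4356 in banding at 4 weeks and 3329 to 4220 in banding at 8 weeks, so that the sham groups were apart and the banding groups overlapped. It rose by 0.37 in sham (adjusted p = 0.00655) with -0.11 under banding, for a difference of -0.48 ± 0.11 (adjusted p = 0.0867). Decr1, which prepares unsaturated fatty acids for oxidation, rose by 0.48 in sham (adjusted p = 0.00304) with a change of 0.03 under banding. By the sum of both changes the sham change was the larger. Its difference of -0.45 ± 0.13 was not called (adjusted p = 0.183).

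The other mitochondrial lists had median differences of smaller size, also below 0. All 25 genes of the citrate cycle and pyruvate oxidation had a difference below 0 (median -0.28), with changes above 0 in sham for 25 and below 0 under banding for 24, and 18 had an unadjusted p under 0.05, or 8 without the libraries with Myl7 above 1000. Of them 2 rose in sham (Suclg1 and Pc), where 2.67% of all genes rose, and 0 changed under banding. The median changes were 0.16 in sham and -0.13 under banding. Cs, citrate synthase, was at 5593 to 6895 in sham at 4 weeks, 6412 to 7423 in sham at 8 weeks, 5329 to 5971 in banding at 4 weeks and 4598 to 4961 in banding at 8 weeks, with a difference of -0.36 ± 0.10 (adjusted p = 0.138). All 46 nuclear-encoded genes of the respiratory chain had a difference below 0, with a median of -0.25, and 0 were called in sham or under banding. Of 31 mitochondrial ribosomal proteins 30 had a difference below 0 (median -0.24). Of 22 genes of branched-chain amino acid and ketone oxidation, 9 rose in sham (2.67% of all genes did), 0 changed under banding, and the median difference was -0.25, with median changes of 0.31 in sham and 0.01 under banding. Outside the mitochondria, 28 of 30 proteasome subunits also had a difference below 0, with a median of -0.20 and 13 lower at an unadjusted p under 0.05. Proteasome changes were above 0 in sham for 27 and below 0 under banding for 26. The 33 cytosolic ribosomal proteins had a median difference of 0.02, and 0 had an unadjusted p under 0.05. Genes of a list share a sample and are not independent of each other. Quantile normalization and rescaling with TMM factors kept the sign of the median difference of the fatty acid, citrate cycle, respiratory chain and mitochondrial ribosomal lists.

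**Figure D4:**
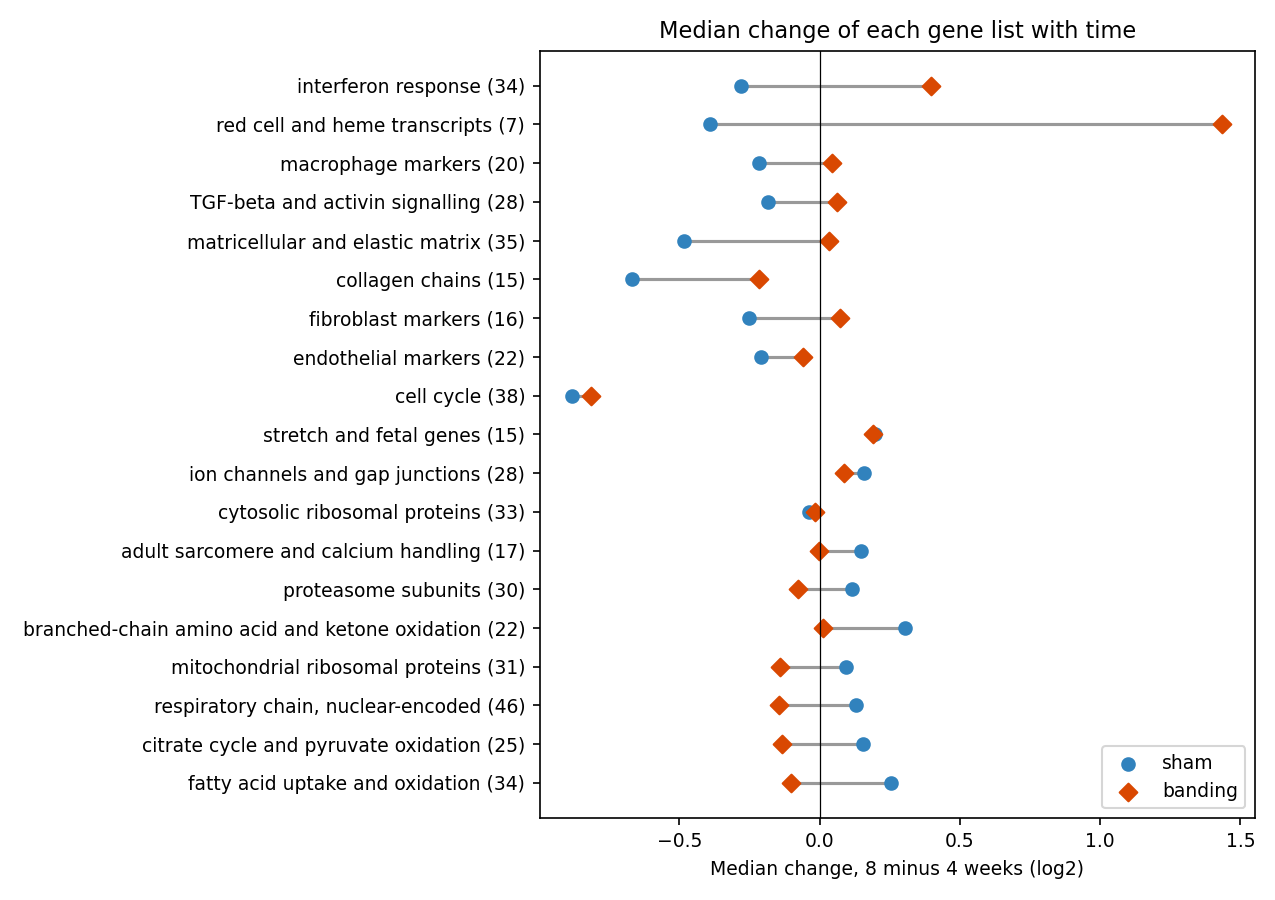
Median change from 4 to 8 weeks (log2) of 19 gene lists in sham (circles) and under banding (diamonds), with the number of tested genes in brackets. The grey line between both symbols shows how far apart the changes are. The interferon and red cell lists lie below 0 in sham and above 0 under banding. The macrophage, TGF-beta and fibroblast lists do so too, with banding medians nearer 0. The matrix lists are below 0 chiefly in sham. The mitochondrial and proteasome lists are above 0 in sham and near or below 0 under banding, and the cell cycle list is far below 0 in both.

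Of 38 tested genes of the cell cycle 24 fell in sham, where 3.86% of all genes fell, and 15 fell under banding, where 0.659% did. Of these 11 fell in both settings, and 0 rose in either. The median changes were -0.88 in sham and -0.81 under banding, and the median difference was 0.04, or -0.03 with quantile normalization. Mki67, a marker of proliferating cells, was at 206.0 to 527.3 in sham at 4 weeks and 97.7 to 140.3 in sham at 8 weeks, and at 282.2 to 527.9 in banding at 4 weeks and 199.6 to 231.9 in banding at 8 weeks. Both settings separated the times without overlap. Mki67 fell by 1.46 in sham (adjusted p = 0.000199) and by 0.87 under banding (adjusted p = 0.0476), and the difference was 0.59 ± 0.30 (95% interval -0.02 to 1.20, adjusted p = 0.442). Aurkb, the mitotic kinase Aurora B, fell by 2.19 in sham (adjusted p = 0.000204) with -0.67 under banding, and its difference of 1.52 ± 0.45 had an unadjusted p of 0.00271 and an adjusted p of 0.182.

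Stretch-responsive and fetal genes gave small or uncertain differences beside their large banding effects. Myh7, the slow myosin heavy chain, was at 7065 to 8948 in sham at 4 weeks, 9950 to 16610 in sham at 8 weeks, 48150 to 92650 in banding at 4 weeks and 91160 to 126600 in banding at 8 weeks. It rose by 0.60 in sham (adjusted p = 0.0247) and by 0.81 under banding (adjusted p = 0.0212), and the difference was 0.20 ± 0.23 (95% interval -0.28 to 0.68). Myh6, the fast chain, was at 191500 to 279700 in sham at 4 weeks and 232000 to 289400 in sham at 8 weeks, and at 144200 to 154200 in banding at 4 weeks and 96550 to 115300 in banding at 8 weeks, without overlap of the banding groups. The Myh6 difference was -0.59 ± 0.18 (95% interval -0.96 to -0.23, unadjusted p = 0.00272, adjusted p = 0.182), with 83.0% from the banding change of -0.49 (adjusted p = 0.0577), and DESeq2 and the fit with the atrial score called it.

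Acta1, skeletal actin of the fetal heart, fell by 0.98 in sham (adjusted p = 0.0481) with 0.01 under banding, and its difference was 0.99 ± 0.43 (95% interval 0.10 to 1.88, adjusted p = 0.377). Nppb, the natriuretic peptide BNP, had banding effects of 3.95 at 4 weeks and 3.75 at 8 weeks and a difference of -0.20 ± 0.54 (95% interval -1.33 to 0.93). For Nppa, the atrial natriuretic peptide, sham libraries ran from 76.2 to 30980, and the difference of -0.53 ± 1.90 has a 95% interval of -4.47 to 3.42. Nppa is also an atrial transcript, and the 2 sham libraries with the highest Nppa, replicate 1 of each time, also held the highest Myl7 of their groups.

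Red cell transcripts were high in most libraries of banding at 8 weeks. Hbb, a beta chain of hemoglobin, was at 1217, 2712, 3270, 2573 and 2573 in sham at 4 weeks, at 1118, 1453, 1628, 2741 and 2280 in sham at 8 weeks, at 1263, 2054, 2066, 2494 and 3295 in banding at 4 weeks, and at 7370, 10660, 2082 and 7219 in banding at 8 weeks. In banding at 8 weeks 3 libraries lay above all others, and replicate 4 lay within their range. Of 7 red cell and heme transcripts 1, Hbb-b1, rose under banding (0.485% of all genes did), and 6 had a higher difference at an unadjusted p under 0.05, with a median of 1.66, or 2.25 without replicate 4. For the difference limma and the fit with the atrial score called 0 of the 7, and DESeq2 called Hbb and Hbb-bs, both higher. Reads can be split between near-identical hemoglobin genes, so single values are uncertain. Of 20 macrophage markers 0 changed in sham or under banding, and 6 had a higher difference at an unadjusted p under 0.05, or 3 without replicate 3 of sham at 4 weeks. Among them Cx3cr1, the fractalkine receptor, was at 2.36 to 20.3 in sham and at 18.6 to 49.6 in banding at 4 weeks and 34.0 to 55.5 in banding at 8 weeks. Of 10 mast cell and granulocyte markers 3 fell under banding (0.659% of all genes did), Cma1, Tpsb2 (by 1.10, adjusted p = 0.0328) and Cpa3 (by 1.42, adjusted p = 0.0315), which encode mast cell proteases, and 0 changed in sham.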

How the data were processed

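Total RNA from right ventricles of Wistar rats was sequenced after ribosomal RNA removal (TruSeq Ribo-Zero Gold, 800 ng of input, per the labels' protocols). STAR, DESeq2 and the build rn6 appear, with no version, in the submitters' processing notes. How reads were counted, and with which strand setting, is not given in the sources used here. Normalized counts for 18282 RefSeq transcript IDs were deposited by the authors as a table of 19 libraries, a signal in which each library's reads were scaled by its size factor. Of these, 17359 took their symbol from a reference table (GRCr8), 922 from a deposited comparison table, and 1 had none. All positive deposited values (100%) were whole reads within 0.001 after dividing by each library's smallest step, so read numbers were recovered for the alternatives. Values are printed with at most 4 significant digits.

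Log2(normalized count + 1) was fitted with limma 3.58.1 in R 4.3.3 (empirical Bayes with trend, 2-sided), with 4 group means in 1 model, over the 10926 IDs with at least 10 in at least 4 libraries, called genes here. A call required an adjusted p under 0.05 (Benjamini-Hochberg, over all of them). Errors of log2 changes are standard errors. The pseudocount understates changes of low genes. The side of a difference was taken from the sum of the sham and banding changes, tested in the same fit: where it was called, the change with the larger size was named. For a gene not called for the difference, a named side does not show that the changes differ. The banding share is the banding change as a percent of the difference. The fits were also run on simulated counts with known changes. These counts had the same spread setting in every group, and genes changed in sham or under banding but not in both. The simulation therefore cannot show how unequal spread between groups affects the calls.

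Genes were named by rule: the 10 largest called differences each way with a mean of at least 50, up to 4 per side with the smallest p, up to 4 called or else 2 members with the smallest p per list, and 9 fixed heart genes. Added after their values were seen were the 25 genes with the smallest p and those others shown as examples. Members and gene lists were chosen with earlier results of these data known. Alternatives were other pseudocounts, filters and scalings, a replicate block, a robust fit, an atrial score as a covariate (the mean log2 level of Myl7, Myl4, Sln and Bmp10), leaving out libraries, and edgeR 4.0.16 and DESeq2 1.42.0 on recovered reads. An item withheld for evaluation is not reported here.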

Additional observations from a re-analysis of the deposited data

Results flagged for a closer look

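The banding effect differed between 8 and 4 weeks by the test of that difference for Oasl2 (2.02 on the log2 scale), Rsad2 (1.34) and Fxyd6 (0.87), each with an adjusted p of 0.0101 (limma).

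Of 17 genes looked at in 68 groups of libraries, 6 libraries lay far from the others of their group, where chance gives about 1 in 20 groups. For Oasl2 these were replicate 2 of sham at 8 weeks, the lowest of its group at 14.8 normalized counts, and replicate 3 of banding at 4 weeks, the highest of its group at 57.2. Mx2 was highest in replicate 4 of sham at 8 weeks, at 214.2. Hadhb was highest in replicate 1 of banding at 8 weeks, at 7562, which was also the shallowest library. Nppa was highest in replicate 1 of sham at 4 weeks, at 14200, and in replicate 1 of sham at 8 weeks, at 30980, and the same libraries had the highest Myl7 of their groups, at 7268 and 17580.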

How the results depend on the processing

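Genes called for the difference (3 higher, 0 lower as reported) numbered 5 higher with TMM rescaling, 6 higher with quantile normalization, 71 higher and 79 lower with the atrial score as covariate, 15 and 26 without the 2 libraries under 3 M reads, and 47 and 30 with DESeq2. The 3 reported genes were among those called in each of these fits, and a minimum mean of 50 left 2 by taking Oasl2 out of the test. Of 162 genes called by DESeq2 or with the covariate, 65 were called by both. Fits with other pseudocounts, no filter, a robust fit and edgeR called 3 or 4. Genes with the larger change in sham (1) numbered 25 with the covariate, 2 without the libraries with Myl7 above 1000, 4 without the shallow libraries and 14 with DESeq2; those with the larger change under banding (0) numbered 3 with the covariate, 2 without the shallow libraries and 4 with DESeq2. Genes that rose in sham (292) numbered 498 with the covariate and 49 without the libraries with Myl7 above 1000, and those that fell (422) 108 without the latter. Under banding, rises (53) numbered 26 with no filter, 125 with the covariate, 26 without the libraries with Myl7 above 1000 and 133 with DESeq2, and falls (72) numbered 38, 161, 24 and 138 in the same order and 47 without the shallow libraries. The cause of these shifts was not tested, beyond the smaller number of libraries where some were left out.

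With single libraries left out, the counts were 2 to 19 higher and 0 to 10 lower for the difference, 0 to 7 with the larger change in sham, 0 to 6 with the larger change under banding, 152 to 363 rising and 271 to 485 falling in sham, and 12 to 70 rising and 23 to 84 falling under banding. For the difference, 23 genes were called without replicate 2 of sham at 4 weeks, 23 without replicate 1 of sham at 8 weeks, 19 without replicate 3 of banding at 4 weeks, and 16, 9 and 15 without replicates 1, 3 and 4 of banding at 8 weeks. There were 5 without replicate 1 of sham at 4 weeks, and 5 and 7 without replicates 4 and 5 of sham at 8 weeks. Fxyd6 was lost without replicate 5 of banding at 8 weeks.

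Signs reversed for 3 genes that were not called. Myh7 was at -0.21 without the libraries with Myl7 above 1000. Nppa ran from -1.62 to 0.55 with single libraries left out and was at 0.63 with the covariate, 0.73 without the libraries with Myl7 above 1000, 0.63 without the shallow libraries, and 0.26, 0.23, 0.55 and 0.01 without replicates 2 and 5 of sham at 4 weeks and replicates 1 and 5 of sham at 8 weeks. Nppb ran from -0.44 to 0.19 and was at 0.19 and 0.00 without replicate 5 of sham at 4 and at 8 weeks.

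With the replicate number as a block 3 genes were called, the same 3. Deviations from group means correlated between -0.28 and 0.32 over 27 pairs of samples with the same number, 7 of them above 0.1. The median correlation was 0.02 for these pairs and -0.007 for pairs with other numbers. These values do not exclude that some samples were paired. The median standard error of the difference was 0.185, and the smallest difference called by limma was 0.87. DESeq2 on the same libraries also called smaller ones, among them Hadha, which was at -0.44 in limma.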
